A study of Danio rerio with 12 samples.

Results

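The genes described here lie around psen2 on zebrafish chromosome 1, at most 10 Mb from the midpoint of psen2 (chr1:51048975-51062405, GRCz11, minus strand), with psen2 itself left out. A gene was placed by the midpoint between its lowest and highest exon coordinate. The window held 622 genes of the 32057 in the count table, and 266 of them, called members below, were selected on their CPM, the count of a gene scaled to a common library total, which had to exceed 1.5 in at least 4 of the 12 fish. The tested genes numbered 16021 in all, of which 423 lay elsewhere on chromosome 1 and 15331 on other chromosomes. Of the 356 genes in the window that were not selected, 96 had a count of 0 in every fish, 236 were counted but never above 1.5 CPM, and 24 were above it in 1 to 3 fish. Of the members, 221 were above 1.5 CPM in all 12 fish and 5 in exactly 4, among them otx2a, which was above it in 3 WT fish, 1 Het fish and 0 Hom fish. No member passed through the fish of a single genotype, but caspb, described below, passed through Het and Hom fish alone. At the filter's other side, UGP2 and 2 clone-named genes were above 1.5 CPM in exactly 3 WT fish and were therefore left out.

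The libraries were made from whole brains of 12 female zebrafish aged 6 months, 4 of each genotype at psen2. WT fish carried no mutant allele, Het fish were psen2S4Ter/+, and Hom fish were psen2S4Ter/psen2S4Ter. The allele is a small deletion induced in Tübingen fish with CRISPR/Cas9 that shifts the reading frame near the start codon, and the study asked how it changes gene activity in the adult brain. All fish were siblings from one mating of Het parents and shared a tank, so the groups have the same family background. The 3 groups therefore stand for 1 mutant allele in 1 family.

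Presenilin 2, the product of psen2, is a catalytic subunit of gamma-secretase, the membrane protease that cuts the amyloid precursor protein and the Notch receptors, and inherited mutations of its human counterpart cause familial Alzheimer's disease. Genes that lie close together on a chromosome are usually inherited together, because recombination in the parents seldom separates them. In a family that segregates a mutation, siblings sorted by genotype at the mutated gene are thereby also sorted, more loosely with distance, by the parental copy of its neighbours. Genotype at psen2 and parental origin of the members cannot be told apart in these groups, and no allele of a neighbouring gene was read here.

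Total counts ranged from 11878943 to 17026801 per fish, and a count of 3 corresponded to 0.176 to 0.253 CPM. The mitochondrial rRNA genes took 17.9 to 26.4% of the counts in WT fish and 31.3 to 35.5% in the 8 mutant fish, without overlap, and were left out before normalization. Summed markers of neurons (ELAVL3 and elavl4) lay at 1700 to 2120 CPM in WT and 1400 to 1550 CPM in mutant fish, and those of radial glia (GFAP and glulb) at 150 to 196 and 197 to 454 CPM. Of the markers chosen beforehand, 2 of 5 were found by symbol for neurons and 2 of 5 for radial glia. For blood 2 of 3 were found, and for muscle and skin 3 of 4. The markers of microglia summed to 266 to 414 CPM in WT and 370 to 512 CPM in mutant fish, those of endothelium to 52.1 to 77.7 and 70.2 to 102 CPM, those of blood to 46.1 to 64.4 and 38.3 to 124 CPM, and those of muscle and skin to 51.7 to 81.6 and 9.17 to 692 CPM. None of the markers found for these cell types was at 0 in all fish. The part of rRNA content and cell types in the changes described below was not tested, and in whole brains fewer cells of a type and less RNA per cell cannot be told apart.

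The locus itself was looked at first. psen2 counts add both alleles, and they were 22.6, 17.8, 21.3 and 20.3 CPM in WT, 19.9, 16.9, 22.3 and 20.9 CPM in Het, and 21.0, 18.4, 20.3 and 16.5 CPM in Hom. The 3 genotypes overlapped, the log2 fold change (logFC) of the mutants against WT was -0.072 (SE 0.11), and its FDR, the Benjamini-Hochberg adjusted p of edgeR's quasi-likelihood F test over all tested genes, was 0.629. A check of the genotype labels by the transcript total was thus not possible, since the total does not separate the alleles. The paper reports such a check for each library from counts of the WT and mutant psen2 transcripts, with the genotypes found as labelled.

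The first question was how many members changed with the mutant allele, and how far from psen2 they lay. Mutants were compared with WT by the average of the Het and Hom levels. A gene counted as differentially expressed (DE) when its p stayed below 0.01 after Bonferroni adjustment, or when its FDR was below 0.01 and its logFC exceeded 1 in size. Of the 266 members, 14 (5.26%) were DE, against 406 of all 16021 tested genes (2.53%) and 6 of the 423 other genes of chromosome 1 (1.42%). DE members were higher in mutants for 8 genes and lower for 6, whereas 1.53% of all tested genes were DE and higher and 1.00% were DE and lower. Across the 25 chromosomes the DE share ran from 0.795% on chromosome 13 to 3.78% on chromosome 23, with chromosome 1 as a whole at 2.9%. At an FDR under 0.05 the background was high, with 34.1% of all tested genes called (16.8% higher, 17.4% lower), and 111 members (41.7%) were called, 49 of them higher and 62 lower. The median size of the logFC was 0.33 over the members and 0.28 over all tested genes. In 56 members (21.1%) the 8 mutant fish lay on one side of the 4 WT fish, 22 higher and 34 lower, and this was so for 16.4% of all tested genes. These counts moved with single WT fish. The DE members numbered 9 without WT fish 79, 5 without WT fish 86 and 25 without WT fish 88, where the same settings called 1.38%, 0.999% and 4.27% of all tested genes, and without any other fish they numbered 12 to 17.

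By the quasi-likelihood F test, the DE members did not gather at psen2. None of the 34 members within 1 Mb was DE, against 2 of 37 between 1 and 2.5 Mb, 8 of 84 (9.52%) between 2.5 and 5 Mb and 4 of 111 (3.6%) between 5 and 10 Mb. Beyond the window, 1 of 90 genes between 10 and 20 Mb was DE. The empty nearest bin depended on the test. With edgeR's likelihood-ratio test and with DESeq2, used as alternatives, at least esf1, si:dkeyp-123h10.2 and prdx2, all within 1 Mb, were DE. Single genes were followed under the alternatives only where the naming rule given below had picked them. The full count of the nearest bin was therefore not taken with these 2 tests. These tests called 6.03% and 7.07% of all tested genes. The share called at an FDR under 0.05 was flatter, at 41.2%, 37.8%, 42.9% and 42.3% in the 4 bins from the nearest to the farthest and 35.6% between 10 and 20 Mb. The median size of the logFC was 0.38, 0.27, 0.28 and 0.43 in the same bins, so it neither fell nor rose steadily with distance. The nearest bins held 34 and 37 genes, so each DE call weighs heavily on their shares, and no test between bins was made. The low-coordinate side held 7 DE members of 126 and the high-coordinate side 7 of 140. The window was cut short on its high side, because the last gene of chromosome 1 ended at position 59571785. The bin from 5 to 10 Mb was therefore only partly filled there. The farthest member on that side lay at 8.51 Mb, while the farthest on the other side, LRPAP1, lay at -9.92 Mb. At that edge the members LRPAP1, DOK7 and rgs12b had a logFC of 0.17 (SE 0.098), -0.05 (SE 0.25) and -0.061 (SE 0.1), and the first genes outside, ADRA2C, gpr78a and NAA15, 0.2 (SE 0.22), 0.56 (SE 0.26) and -0.2 (SE 0.082).

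**Figure D1:**
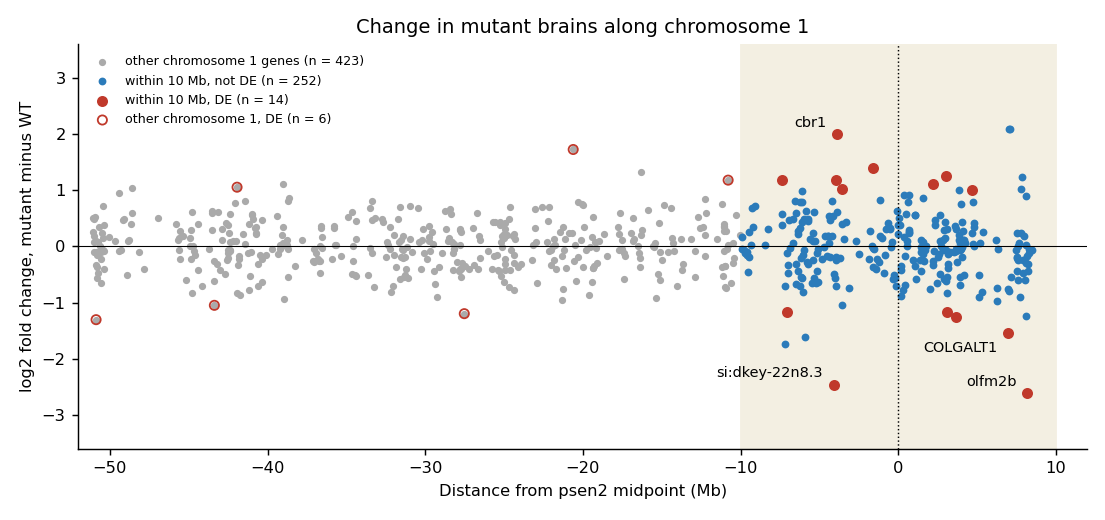
Change in mutant brains along chromosome 1: each point is a tested gene, placed by its distance from the psen2 midpoint in Mb (x axis) and its log2 fold change between mutants and WT (y axis), with the 10 Mb window shaded, members in blue, DE members in red and other DE genes ringed. The 14 DE members lie on both sides of psen2 at 1.62 Mb or more from it, and the 6 other DE genes are scattered over the rest of the chromosome.

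**Figure D2:**
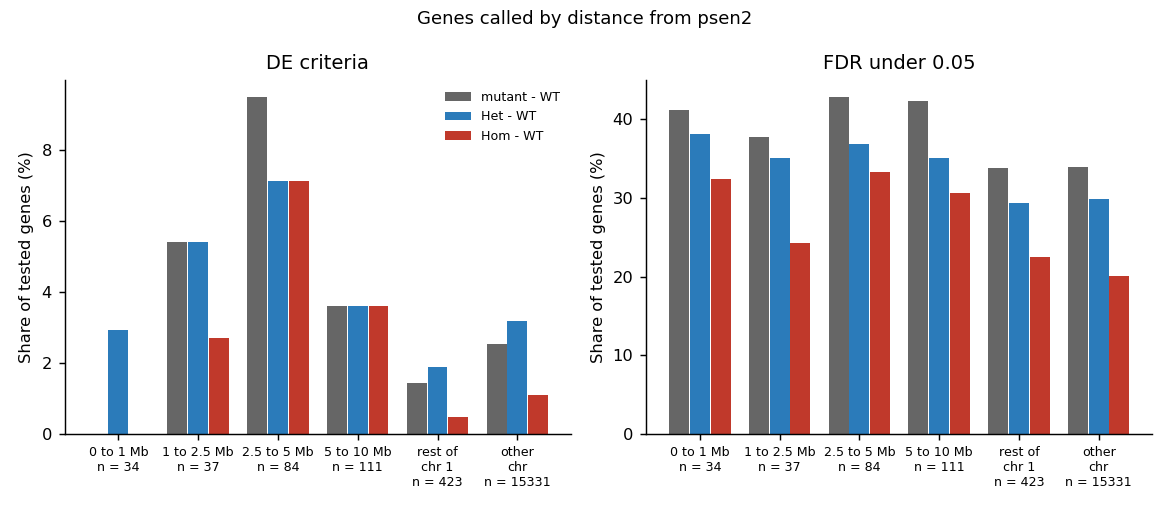
Share of tested genes called, in percent (y axis), by distance from psen2 (x axis, with the number of genes), under the DE criteria (left) and at an FDR under 0.05 (right), for the mutant allele, Het and Hom against WT. Under the DE criteria the bin from 2.5 to 5 Mb stands highest, at 9.52% for the mutant allele, while at an FDR under 0.05 the shares within 10 Mb run from 37.8 to 42.9% for the mutant allele, 35.1 to 38.2% for Het and 24.3 to 33.3% for Hom.

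The 10 members nearest to psen2 lay within 202 kb of it, and they moved in both directions. DPY30, a subunit of the histone H3K4 methyltransferase complexes, sits 15 kb away and had means of 15 ± 2.66 CPM in WT, 21.8 ± 4.96 in Het and 17.5 ± 4.44 in Hom (SD, n = 4 each), with a logFC of 0.38 (SE 0.18, FDR 0.112). SPAST, which encodes the microtubule-severing enzyme spastin, was at 11.1 ± 1.24, 14.1 ± 0.73 and 12.0 ± 0.229 CPM, with a logFC of 0.23 (SE 0.096, FDR 0.0825). Neither of these closest neighbours passed an FDR of 0.05 for the mutant allele. jag1a, a Notch ligand 76 kb away, had values of 31.3, 17.3, 20 and 27 CPM in WT, 45.5, 36.0, 34.5 and 33.5 CPM in Het and 29.2, 35.1, 27.8 and 29.3 CPM in Hom. It rose in the mutants by a logFC of 0.50 (SE 0.15, FDR 0.0235), although Hom fish overlapped WT fish 79. mdh1aa, the cytosolic malate dehydrogenase of the malate-aspartate shuttle, had values of 133, 114, 200 and 139 CPM in WT, 220, 229, 363 and 224 CPM in Het and 168, 192, 230 and 211 CPM in Hom. It rose by a logFC of 0.64 (SE 0.17, FDR 0.0135), with 4 of 4 Het fish above WT and 2 of 4 Hom fish below WT fish 88.

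The strongest of these 10 changes were decreases. esf1, a nucleolar gene needed for ribosomal RNA processing in yeast, lies 156 kb away and had 59.9, 72.1, 36.6 and 45.0 CPM in WT, 28.8, 30.2, 27.0 and 28.1 CPM in Het and 30.2, 31.2, 24.6 and 30.6 CPM in Hom. Its 8 mutant values lay below the 4 WT values, with a logFC of -0.89 (SE 0.15, FDR 0.00132). It missed the DE criteria because its logFC was under 1 in size and its p did not stay below 0.01 after Bonferroni adjustment. si:dkeyp-123h10.2, a clone-named gene 202 kb away, had 101, 118, 94.9 and 97.4 CPM in WT, 70.0, 72.7, 67.6 and 65.1 CPM in Het and 58.7, 74.9, 84.2 and 64.5 CPM in Hom, again without overlap (logFC -0.56, SE 0.098, FDR 0.00163). KIF16B, a kinesin that moves early endosomes, fell from 66.0 ± 7.1 CPM in WT to 47.8 ± 8.4 in Het and 51.4 ± 2.68 in Hom (logFC -0.41, SE 0.11, FDR 0.0112). NDUFAF5, an assembly factor of respiratory complex I whose span overlaps that of KIF16B on the other strand, was at 17.6 ± 4.03, 13.7 ± 1.22 and 14 ± 1.31 CPM (logFC -0.35, SE 0.13, FDR 0.0516). btbd3a, the counterpart of a gene that orients dendrites in mouse cortex, rose from 31.9 ± 3.97 CPM to 40.6 ± 5.03 in Het and 42.4 ± 3.89 in Hom (logFC 0.38, SE 0.11, FDR 0.0163). otx2a, a homeobox transcription factor gene of the forebrain and eye, was near the filter's limit at 2.67 ± 0.706, 1.83 ± 1.07 and 1.47 ± 0.419 CPM (logFC -0.71, SE 0.32, FDR 0.101). In order along the chromosome the signs formed blocks, with the 5 genes from mdh1aa to btbd3a above 0 and the 5 genes on either side of them below 0.

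**Figure D3:**
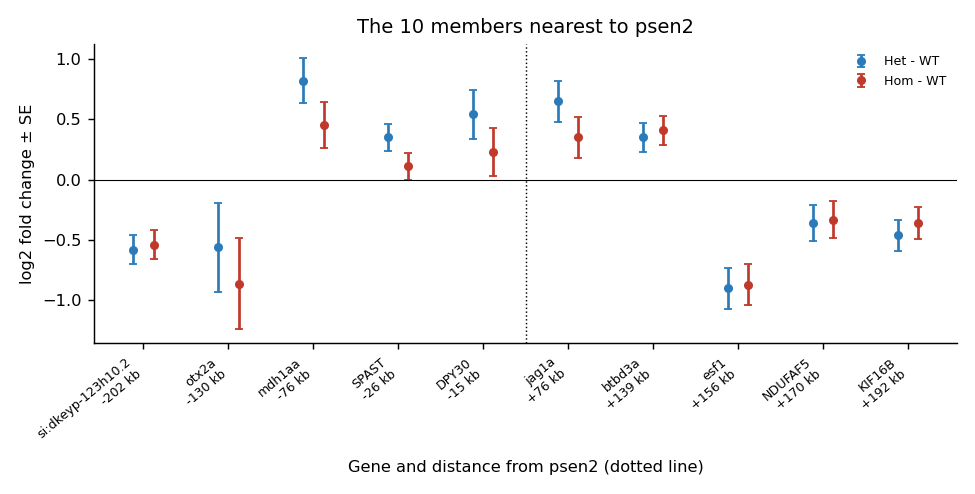
log2 fold change ± SE (y axis) of Het (blue) and Hom (red) against the same 4 WT fish for the 10 members nearest to psen2, in order along the chromosome with their distance in kb (x axis). mdh1aa, SPAST, DPY30, jag1a and btbd3a lie above 0, and si:dkeyp-123h10.2, otx2a, esf1, NDUFAF5 and KIF16B lie below it.

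The 8 DE members that were higher in mutants were cbr1, cryzl1, atp5md, smdt1b, CISD2, STN1, dnajb1b and il15. cbr1 (chr1:47165842-47173403, -3.89 Mb), a carbonyl reductase that uses NADPH to reduce aldehydes, ketones and quinones, was at 15.8, 9.38, 10.1 and 9.84 CPM in WT, 56.2, 34.0, 47.1 and 35.0 CPM in Het and 47.3, 44.9, 53.3 and 41.3 CPM in Hom. The lowest mutant fish was above the highest WT fish, and cbr1 had the smallest p of the DE members (logFC 2.00, SE 0.18, 3.99-fold, FDR 0.00019). cryzl1 (chr1:47089501-47105214, -3.96 Mb), a quinone oxidoreductase-like gene, had 7.43, 5.66, 9.23 and 9.49 CPM in WT, 22.7, 16.9, 17.9 and 15.7 CPM in Het and 16.9, 17.4, 21.1 and 16.1 CPM in Hom. It too was higher in 8 of 8 mutant fish (logFC 1.18, SE 0.16, FDR 0.000586), and its logFC was 1.20 in Het and 1.17 in Hom. atp5md (chr1:49432137-49434892, -1.62 Mb), a small membrane subunit of mitochondrial ATP synthase and the DE member nearest to psen2, had 6.42, 5.51, 13.4 and 12.6 CPM in WT, 21.6, 30.3, 46.1 and 21.8 CPM in Het and 15.5, 20.4, 24.9 and 22.7 CPM in Hom. Het fish 84 was the highest, and the gene was higher in 8 of 8 mutants (logFC 1.40, SE 0.28, FDR 0.00309). The call was lost without WT fish 79 or WT fish 86 (highest FDR 0.0147).

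smdt1b (chr1:54062510-54063520, 3.01 Mb), a regulator of the mitochondrial calcium uniporter, was at 9.06, 14.3, 22.5 and 12.5 CPM in WT, 30.9, 31.1, 56.4 and 25.4 CPM in Het and 21.6, 36.3, 40.3 and 37.8 CPM in Hom. Hom fish 78 was below WT fish 88, and the logFC was 1.26 (SE 0.27, FDR 0.00419). The call was lost without WT fish 79, WT fish 86 or WT fish 95 (highest FDR 0.018). CISD2 (chr1:43686251-43692141, -7.37 Mb), an iron-sulfur protein of the outer mitochondrial membrane and the endoplasmic reticulum, was low throughout, with 1.43, 0.465, 1.74 and 2.07 CPM in WT, 3.25, 3.61, 3.64 and 4.10 CPM in Het and 2.43, 2.67, 3.38 and 3.04 CPM in Hom. Mutants and WT did not overlap (logFC 1.19, SE 0.29, FDR 0.00849), but the call was lost in 11 of 12 fits that each left out 1 fish, with WT fish 95 as the exception. Without WT fish 86, its lowest fish, the logFC was 0.88.

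Mitochondrial energy genes chosen by symbol counted 6 members, of which 4 rose at an FDR under 0.05 and 0 fell, with a median logFC of 0.36. The same symbols over all tested genes gave 78 of 120 higher, 2 lower and a median of 0.55, so the members sat within a list that was shifted upward across the genome. The 4 were suclg1, NDUFS8, atp5md and mdh1aa, and the other members of the list were NDUFAF5 and NDUFB7. mdh1aa entered the list through its symbol, although it encodes the cytosolic enzyme described above. The 1 ribosomal protein gene of the window, rps6, rose with a logFC of 0.49 (SE 0.17, FDR 0.0399), where 62 of 94 such genes rose across the genome. Members called higher at an FDR under 0.05 had a median exonic length of 2157 bp and those called lower 2770.5 bp, against 2237 and 3145.5 bp over all tested genes. With the effect of length on each fish taken out, 14 members were again DE, 11 of them in common with the calls above, and 5 were higher, while CISD2, STN1 and dnajb1b lost the call. Of all tested genes 2.26% were then DE.

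Members with roles in DNA, RNA and protein upkeep moved both ways. STN1 (chr1:47499888-47513484, -3.55 Mb), a subunit of the complex that completes telomere replication, had 5.30, 3.65, 4.27 and 3.11 CPM in WT, 9.10, 7.51, 7.39 and 5.52 CPM in Het and 9.44, 8.3, 9.28 and 9.64 CPM in Hom. It was higher in 8 of 8 mutants (logFC 1.02, SE 0.17, FDR 0.00137), and the call was lost without WT fish 86, WT fish 95 or Het fish 80, with a logFC between 0.91 and 1.16 over the 12 fits. dnajb1b (chr1:55745878-55750208, 4.69 Mb), an Hsp40 co-chaperone gene, had 1.73, 3.02, 2.7 and 3.02 CPM in WT, 5.76, 4.08, 3.75 and 4.01 CPM in Het and 4.57, 6.87, 8.12 and 5.82 CPM in Hom. Its mutant fish were again above WT (logFC 1.00, SE 0.21, FDR 0.00408), with a logFC at the limit of the criteria, and the call was lost without WT fish 79, WT fish 86, Het fish 80, Hom fish 82 or Hom fish 83, with a logFC between 0.86 and 1.08 over the 12 fits. knop1 (chr1:54683655-54694012, 3.63 Mb), a lysine-rich nucleolar protein gene, had 62.9, 94.9, 30.2 and 43.4 CPM in WT, 25, 27.1, 17.2 and 24.1 CPM in Het and 31.6, 24.6, 19.9 and 25.6 CPM in Hom. It was lower in mutants (logFC -1.25, SE 0.24, FDR 0.00225), although Hom fish 78 was above WT fish 88. The knop1 call was lost without WT fish 79, where the FDR was at the limit (rounded to 0.01, logFC -1.21). It was also lost without WT fish 86, where the logFC was under 1 in size (-0.90, FDR 0.00967). Over the 12 fits the logFC of knop1 lay between -1.46 and -0.90.

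The next DE members were il15 and olfm2b, which encode secreted proteins, and COLGALT1, which encodes an enzyme that modifies collagen. il15 (chr1:53234693-53260082, 2.19 Mb), a cytokine of natural killer and T lymphocytes in mammals, had 2.44, 1.86, 3.66 and 3.71 CPM in WT, 6.22, 7.14, 6.17 and 5.61 CPM in Het and 5.45, 5.92, 7.25 and 6.77 CPM in Hom. It was higher in 8 of 8 mutants, with a logFC of 1.1 in Het and 1.12 in Hom (mutant allele 1.11, SE 0.19, FDR 0.00163), and the call was lost without WT fish 86 (logFC 0.94). olfm2b (chr1:59244159-59251874, 8.19 Mb), a member of the olfactomedin family of secreted glycoproteins, had 202, 217, 77.8 and 123 CPM in WT, 47.7, 33.2, 28.9 and 21.5 CPM in Het and 2.82, 11.3, 42.4 and 21.5 CPM in Hom. It showed the largest decrease of the DE members, 6.12-fold (logFC -2.61, SE 0.44, FDR 0.00142), and its Hom fish were far apart, with Hom fish 78 lowest and Hom fish 83 among the Het values. COLGALT1 (chr1:58013076-58036509, 6.97 Mb), which adds galactose to collagen hydroxylysines, had 71.4, 113, 31.1 and 58.4 CPM in WT, 23.9, 23.4, 19.3 and 21.7 CPM in Het and 28.4, 29.2, 20.5 and 24.0 CPM in Hom. It was lower in 8 of 8 mutants (logFC -1.53, SE 0.23, FDR 0.00103), while WT fish 88 came close to the highest mutant.

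The remaining 3 DE members have no named protein in the sources used here, and they were lower in mutants. si:dkey-22n8.3 (chr1:46985884-46989650, -4.07 Mb) had 5.09, 7.99, 7.93 and 13.4 CPM in WT, 0.835, 4.45, 0.661 and 3.30 CPM in Het and 1.07, 0.859, 1.64 and 0.608 CPM in Hom. It was lower in 8 of 8 mutants (logFC -2.46, SE 0.41, FDR 0.00138), and its Het fish split into 2 near the Hom values and 2 between Hom and WT. si:ch73-109d9.1 (chr1:44011472-44025066, -7.04 Mb) had 27.4, 36.8, 18 and 24.6 CPM in WT, 13.3, 13.3, 10.7 and 9.80 CPM in Het and 10.3, 13.3, 11.4 and 13.5 CPM in Hom (logFC -1.16, SE 0.16, FDR 0.000671). CABZ01067151.2 (chr1:54159959-54173322, 3.11 Mb), an intergenic noncoding RNA, had 27, 36, 13 and 18 CPM in WT, 8.82, 11.3, 10.5 and 11.0 CPM in Het and 12.2, 10.5, 9.77 and 9.55 CPM in Hom (logFC -1.17, SE 0.21, FDR 0.00171). In both the mutants lay below WT, and both calls were lost without WT fish 86, with a logFC of -0.96 for si:ch73-109d9.1 and -0.88 for CABZ01067151.2. WT fish 79 and 86 were the highest WT fish and WT fish 88 the lowest for si:ch73-109d9.1, CABZ01067151.2, knop1, COLGALT1 and olfm2b. The mitochondrial rRNA share ran the other way, at 17.9% in fish 86, 18.9% in fish 79, 23.9% in fish 95 and 26.4% in fish 88. Unlike the other DE decreases, si:dkey-22n8.3 was lowest of the WT fish in fish 79 and highest in fish 95. Among the DE increases, atp5md, il15, cryzl1 and CISD2 were lowest of the WT fish in fish 86 and next lowest in fish 79. The increases cbr1, STN1, smdt1b and dnajb1b did not have that order. The part of the rRNA share in these decreases and increases was not tested.

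**Figure D4:**
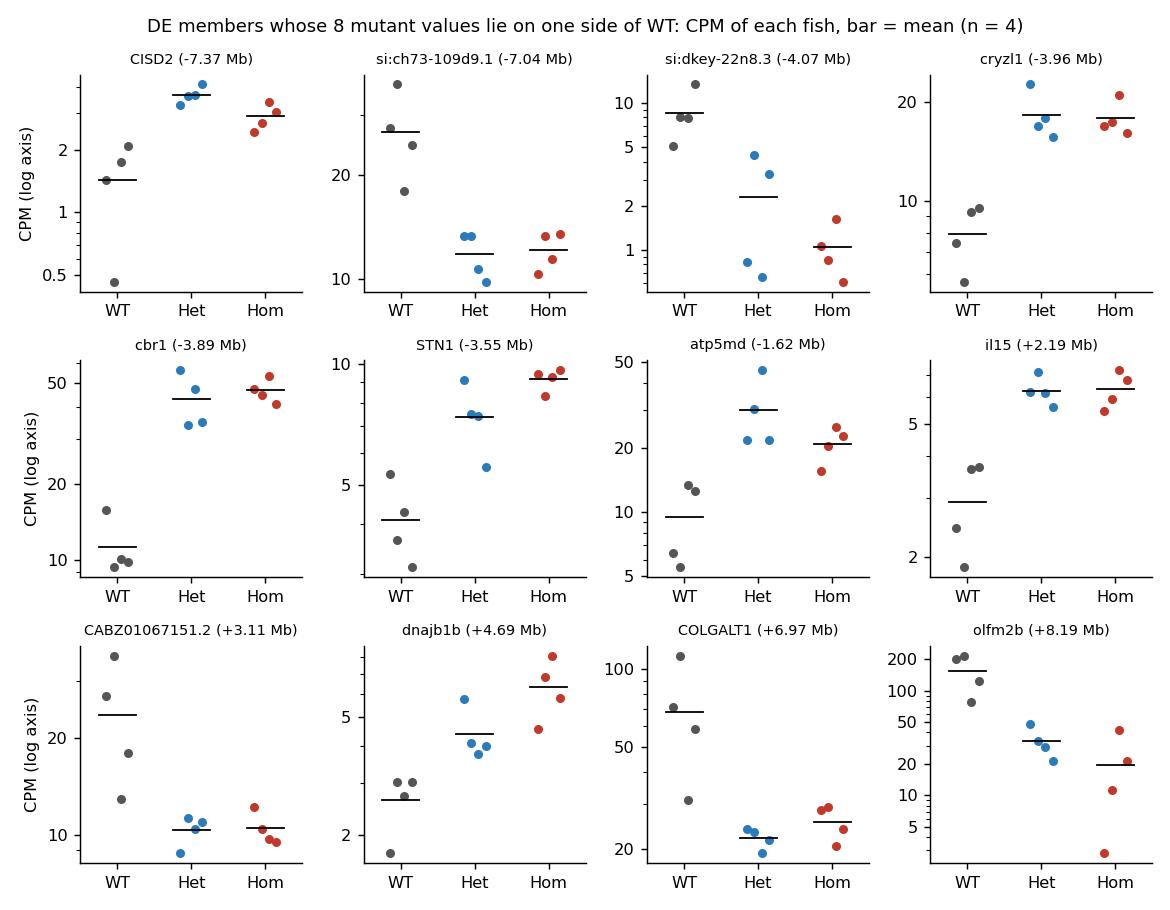
CPM of each fish (y axis, log scale) for the 12 DE members whose 8 mutant values lie on one side of the 4 WT values, by genotype (x axis), with the distance from psen2 in each title and a bar at the mean of 4 fish. cbr1 shows the widest gap between WT and mutant fish among the increases, and olfm2b and si:dkey-22n8.3 spread most within the mutants.

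In stretches of 1 Mb, those with at least 2 DE members were picked out after their counts had been seen. Over all tested genes 2.53% were DE, and the spacing of the DE members was not tested. Of the 13 members between -4 and -3 Mb, 3 were DE (cryzl1, cbr1 and STN1), as were 3 of the 26 between 3 and 4 Mb (smdt1b, CABZ01067151.2 and knop1) and 2 of the 9 between -8 and -7 Mb. The stretch around -4 Mb was the densest, and it mixed signs from gene to gene. si:dkey-22n8.3 fell, ITSN1, a scaffold of endocytosis, fell from 355 ± 68.2 CPM in WT to 237 ± 18.6 in Het and 244 ± 16.5 in Hom (logFC -0.56, SE 0.11, FDR 0.00248), cryzl1 next to it on the other strand rose, and setd4, a lysine methyltransferase gene, fell (logFC -0.70, SE 0.17, FDR 0.00755). Then came 3 class I histocompatibility genes, mhc1zea (logFC -0.24, FDR 0.105), mhc1zda (-0.19, FDR 0.263) and mhc1zba (0.61, FDR 0.0203), and cbr1, which rose. mhc1zba had means of 68.2 ± 20.5 CPM in WT, 90 ± 14.1 in Het and 120 ± 19.8 in Hom. The mhc1z genes resemble one another and differ between fish haplotypes, so reads can be lost or shared among copies, and their values are uncertain. setd4 and the mhc1z genes were singled out after their values had been seen, for their place between DE members.

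None of the 5 most abundant members was DE, and the largest of their changes was that of ITSN1 (logFC -0.56). PNPLA6, the phospholipase known as neuropathy target esterase, had WT, Het and Hom means of 482 ± 167, 329 ± 40.2 and 385 ± 66.8 CPM (logFC -0.43, SE 0.18, FDR 0.0834), and zgc:65894 had 330 ± 40.8, 381 ± 130 and 312 ± 13.1 CPM (logFC 0.063, SE 0.16, FDR 0.785). GRIN2B, a subunit of the NMDA receptor, was at 273 ± 54.5, 287 ± 27.6 and 313 ± 124 CPM (logFC 0.13, SE 0.2, FDR 0.637). pgam1b, a glycolytic phosphoglycerate mutase, was at 187 ± 18.2, 247 ± 64 and 216 ± 9.4 CPM (logFC 0.30, SE 0.13, FDR 0.0816). Of the 5 most abundant members, ITSN1 was the one that passed an FDR of 0.05. As a share of all counts other than mitochondrial rRNA, the members together took 1.15 ± 0.0631% in WT, 1.06 ± 0.0522% in Het and 1.09 ± 0.0225% in Hom (SD, n = 4 each), and the ranges of WT and mutant fish overlapped.

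Other lists chosen by symbol were small. Of the 4 protein kinases, map2k7, slkb and mast1a fell and prkacab rose at an FDR under 0.05 (13 higher and 18 lower of 78 across the genome). mast1a, a microtubule-associated kinase gene 290 kb from psen2, had 168, 175, 131 and 125 CPM in WT, 80.7, 84.4, 80.3 and 94.5 CPM in Het and 96.6, 83.5, 86.1 and 93.5 CPM in Hom. It was lower in 8 of 8 mutants (logFC -0.78, SE 0.099, FDR 0.000516), short of the DE criteria both in size and after Bonferroni adjustment. Of the 4 zinc finger and chromatin genes, 2 fell and 0 rose, where 93 fell and 3 rose of 243 across the genome. Of the 6 vesicle traffic genes found by symbol, 1 rose and 3 fell, where 35 rose and 17 fell of 152 across the genome. The symbols left out other members with such roles, among them ITSN1 and KIF16B, which fell, and dnm2b, which rose (logFC 1.02, FDR 0.0125). Of the 6 solute carriers, 1 rose and 0 fell, against 97 higher and 17 lower of 311. The Notch list was fixed at 2 genes, the ligand jag1a, which rose, and dtx4b, a Deltex-family regulator at -9.54 Mb, which fell (logFC -0.46, SE 0.11, FDR 0.0062). It held these 2 members alone, so it has no share across the genome to be read against. It left out other Notch-related members, among them the ligand DLL1 at 2.96 Mb and NEURL1 at -3.32 Mb. Neither passed an FDR of 0.05 (logFC 0.43 for each, FDR 0.268 and 0.0743).

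The next question was whether 1 or 2 copies of the mutant allele changed the members to different degrees. Het and Hom were each set against the same 4 WT fish, so the results are not independent and are given side by side. In Het, 13 members (4.89%) were DE, 8 higher and 5 lower, against 3.17% of all tested genes. In Hom, 11 members (4.14%) were DE, 5 higher and 6 lower, against 1.11% of all tested genes and 2 of the 423 others on chromosome 1 (0.473%). DE calls in both genotypes were made for 6 members, in Het alone for 7 and in Hom alone for 5. Over all 16021 tested genes these calls numbered 141, 367 and 37. The median size of the logFC was 0.37 in Het and 0.33 in Hom, against 0.31 and 0.27 over all tested genes. Among the members at an FDR under 0.05 for the mutant allele, the medians were 0.62 in Het and 0.68 in Hom, where all tested genes gave 0.59 and 0.52. The change was larger in Hom than in Het for 47 of these 111 members (42.3%), against 1642 of 5467 such genes overall (30%), and 45 of 143 on the rest of chromosome 1 (31.5%). By distance this share was 28.6%, 50%, 47.2% and 40.4% in the 4 bins from the nearest. The shares describe these fish, and their differences were not tested.

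The Het and Hom counts rested on few fish. Het calls numbered 4 without WT fish 79 or WT fish 86, 20 without WT fish 88, and 7, 5 and 8 without Het fish 80, 81 and 84. The shares of all tested genes in Het were then 0.861% and 1.17%, 5.12%, and 1.94%, 1.44% and 2.3%. Hom calls numbered 1 without WT fish 79, 2 without WT fish 86, 22 without WT fish 88 and 7 without WT fish 95. In these fits 0.0749%, 0.181%, 2.63% and 0.936% of all tested genes were DE in Hom. The Hom calls among members numbered 3, 1, 2 and 1 without Hom fish 78, 82, 83 and 85, and 6 without Het fish 81 or 89. The shares of all tested genes in Hom moved from 0.0687% to 2.63% over the 12 fits.

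**Figure D5:**
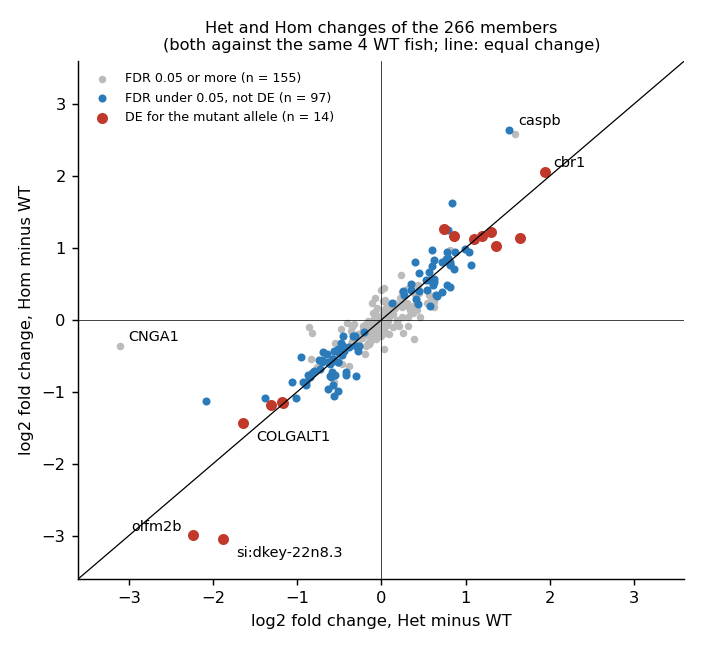
log2 fold change of each of the 266 members in Het (x axis) and in Hom (y axis), each against the same 4 WT fish, with DE members in red, other members at an FDR under 0.05 in blue and the line of equal change. Both axes share the WT fish, and olfm2b and si:dkey-22n8.3 lie on the side where Hom changed more.

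Calls in one genotype alone did not show that the genotypes differed. The members DE in Het alone were prdx2, epn3b, atp5md, zfyve27, knop1, smdt1b and CISD2. prdx2, a peroxiredoxin gene at 0.67 Mb, was the DE call nearest to psen2, with 21.4, 19.9, 30.2 and 23.7 CPM in WT, 45.3, 47.8, 63.6 and 41.7 CPM in Het and 32.7, 39.1, 49.1 and 39.9 CPM in Hom. Hom fish also lay above WT (logFC 0.76, SE 0.17, FDR 0.0112), and the difference of Hom from Het was -0.30 (SE 0.17, unadjusted p = 0.0931 by edgeR's test, FDR 0.989). zfyve27, which encodes the endosomal protein protrudin, had a logFC of 1.04 in Het and 0.95 in Hom, and epn3b, an epsin of clathrin-coated pits, -1.06 in Het and -0.87 in Hom. The members DE in Hom alone were smu1b, STN1, si:dkey-22n8.3, dnajb1b and olfm2b. smu1b, a spliceosome factor gene at -6.03 Mb, had 90.5, 117, 122 and 126 CPM in WT, 74.5, 93.5, 82.7 and 57.9 CPM in Het and 44.5, 49.0, 59.3 and 66.4 CPM in Hom. Het values lay mostly between WT and Hom (logFC -0.56 in Het and -1.06 in Hom), with overlap at Het fish 81 and Het fish 89.

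Compared with each other, Hom and Het brains differed little at these genes. No member had an FDR under 0.05 in Hom against Het by edgeR's quasi-likelihood test, as no gene did across the genome (0.00%). At an unadjusted p under 0.05 there were 14 members (5.26%), 5 of them higher in Hom, against 3.79% of all tested genes and a range of 1.84 to 8.3% over the 25 chromosomes. The median size of the difference was 0.12 for members and for all tested genes alike. Hom and Het fish did not overlap for 9 members (3.38%), against 3.03% of all tested genes. A full order of WT, Het and Hom without overlap was found for 0 members, and for 0.0749% of all tested genes. The count at an unadjusted p under 0.05 fell to 7 (2.63%) without Het fish 84 or Hom fish 82, where the shares of all tested genes were 2.87% and 2.53%, so the members' share was then below or near that of all genes.

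The 6 members with the smallest p in Hom against Het were slc25a23a, zgc:158803, smu1b, NDUFB7, suclg1 and CCSAP. slc25a23a, a mitochondrial carrier for ATP-magnesium and phosphate at 3.93 Mb, had 44.3, 54.1, 53.5 and 43.5 CPM in WT, 57.9, 74.7, 59.8 and 64.3 CPM in Het and 52.1, 33.4, 42.7 and 34.1 CPM in Hom. Hom and Het did not overlap, and their means lay on opposite sides of the WT mean (Hom against Het -0.66, SE 0.15, unadjusted p = 0.000588 by edgeR's test, FDR 0.9). DESeq2 called slc25a23a at an adjusted p of 0.0476, as the 1 member among 9 genes, and edgeR's likelihood-ratio test gave 0 members among 9 genes, with an FDR of 0.0724 for slc25a23a. NDUFB7, a subunit of respiratory complex I, was at 55.2 ± 7.39 CPM in WT, 66.2 ± 14.4 in Het and 48.6 ± 5.9 in Hom (-0.44, SE 0.15, FDR 0.989). suclg1, which encodes the alpha subunit of succinate-CoA ligase, was at 40.2 ± 6.55, 60.2 ± 11.3 and 45.9 ± 4.26 CPM (-0.39, SE 0.14, FDR 0.989). The other 3 were smu1b (-0.49, SE 0.16), CCSAP, a centriole and cilium protein gene (-0.30, SE 0.12), and zgc:158803, the 1 gene of the 6 that was higher in Hom (0.38, SE 0.12). CCSAP had means of 86.5 ± 5.72 CPM in WT, 64.5 ± 7.07 in Het and 52.5 ± 8.03 in Hom. At an FDR of 0.9 to 0.989 none of these differences was separated from the spread among fish once all genes were considered.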

How the data were processed

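Libraries from the brains of 12 fish (WT, Het and Hom, 4 each, grouped by the sample labels) were analysed as paired-end RNA-seq, with rRNA depletion by probes designed for mammals. The authors trimmed reads with cutadapt 1.14, aligned them to GRCz11 with STAR 2.7.0d and made the deposited counts with featureCounts of Subread 1.5.2, using strand, against Ensembl gene models. These deposited counts were not normalized. A further deposited column, of the unit other, gives each gene's exonic length in bp.

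Genes above 1.5 CPM in at least 4 fish were tested, mitochondrial rRNA genes left out, with TMM scaling and edgeR 4.0.16 (quasi-likelihood F test, limma 3.58.1, R 4.3.3) in 1 model of 3 genotypes. The CPM of the filter used all counts. The CPM printed are TMM-scaled without rRNA. Prior degrees of freedom were 4.37 and the biological coefficient of variation 19.8%. Adjustment was over all tested genes. Counting floors cover counting error only.

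Members named were the 10 nearest to psen2, those DE for the mutant allele (in full for the up to 12 of them without overlap), the 6 of smallest p in Hom against Het, the 5 most abundant and those DE in 1 mutant genotype alone. The members, gene lists and this rule were chosen with earlier results of these data known. Symbols came from the paper's gene list for 43 members and a reference table for the others (258 of 266 named), and they are spelled as found there. Identifiers stand in for the rest.

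Alternatives were the likelihood-ratio test, DESeq2 1.42.0, upper-quartile scaling, a length correction (spline of 5 degrees of freedom, quantreg 6.1), no filter, a filter in all 12 fish, a 5 Mb window, edge distance and leaving out each fish. The test was tried on simulated counts. No reference sequence was used here, and the allele-specific psen2 quantification was not used. One list of cell type markers is not reported here.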

Additional observations from a re-analysis of the deposited data

Results flagged for a closer look

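Of 114 groups of 4 fish examined over the 38 named members, 7 held a fish far from the other 3, judged by its gap to the nearest value over the group's range. Chance alone gives about 1 such group in 20. Het fish 84 stood high for 3 genes, with 363 CPM of mdh1aa where the other Het fish had 220 to 229 CPM, 342 CPM of pgam1b against 205 to 222 CPM, and 77.1 CPM of suclg1 against 53.0 to 56.4 CPM. Genes of an exonic length under 1000 bp took a larger share of the counts in this fish than in the other 11 (27.8%, against 8.41 to 18.8% elsewhere), and their part in these values was not tested. For cbr1, WT fish 79 had 15.8 CPM and the other WT fish 9.38 to 10.1 CPM, still below the lowest mutant. For dnajb1b, Het fish 80 had 5.76 CPM and the others 3.75 to 4.08 CPM. For esf1, Hom fish 83 had 24.6 CPM and the others 30.2 to 31.2 CPM. For CCSAP, Hom fish 78 had 64.5 CPM and the others 47.8 to 49.6 CPM.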

How the results depend on the processing

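The count of DE members rose from 14 to 33 with the likelihood-ratio test and to 37 with DESeq2, that in Hom from 11 to 22 and 26, and that in Het from 13 to 21 with DESeq2, where the share of all tested genes rose too (6.03% and 7.07% for the mutant allele, 2.83% and 3.31% for Hom, 6.12% for Het). A window of 5 Mb held 7 DE members of 155 in Hom (4.52%, against 1.11% of all tested genes). Without a filter on low counts, 26 members of 526 had an unadjusted p under 0.05 in Hom against Het (4.94%, against 3.95% of all tested genes). Leaving out each fish in turn gave 5 to 25 DE members for the mutant allele, 4 to 20 for Het, 1 to 22 for Hom, and 7 to 20 at an unadjusted p under 0.05 in Hom against Het. The cause of these moves was not tested, beyond the fewer fish. The median size of the logFC ran from 0.296 with the filter in all 12 fish to 0.529 without a filter, where all tested genes gave 0.271 and 0.371.

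si:dkey-22n8.3, cryzl1, cbr1, COLGALT1 and olfm2b kept the DE call in 12 of 12 fits that left out 1 fish. The direction changed only for 4 named members whose logFC was near 0. With the length correction NDUFB7 went to -0.17 and zgc:65894 to -0.019. With 1 fish left out, NDUFB7 ran from -0.036 to 0.12, with -0.0028 without WT fish 79 and -0.024 without WT fish 88, zgc:65894 from -0.067 to 0.13, with -0.0025 without WT fish 95, slc25a23a from -0.0088 to 0.12, and GRIN2B from -0.012 to 0.25. Of all the values of single genes under alternatives, 610 kept their direction and call, 27 gained a call and 34 lost one. No paired analysis was possible because the fish numbers are not shared between genotypes.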

Other observations

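Some members outside the DE calls had wide changes with wide errors, and they were singled out after their values had been seen. caspb, an inflammatory caspase gene at 7.00 Mb, had 0.204, 1.09, 1.22 and 0.0863 CPM in WT, 2.41, 1.76, 0.331 and 3.12 CPM in Het and 3.6, 4.96, 3.67 and 4.6 CPM in Hom. Hom lay above every WT fish, Het fish overlapped WT, and the logFC was 2.08 (SE 0.56, edgeR FDR 0.013). Its WT values lie at or near the counting floor in 2 fish. No WT fish was above 1.22 CPM, so caspb passed the filter through mutant fish alone. CNGA1, a photoreceptor channel subunit gene at -7.16 Mb, had 20.2, 15.9, 0.0 and 0.0863 CPM in WT, 0.464, 1.67, 0.0 and 1.87 CPM in Het and 19.1, 5.73, 3 and 0.174 CPM in Hom, so fish of one genotype differed more than the genotypes did (logFC -1.74, SE 1.1, FDR 0.219).

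Within 1 Mb of psen2, 14 of 34 members (41.2%) had an FDR under 0.05, 8 higher and 6 lower, against 34.1% of all tested genes. Beyond the genes described above they included PPP3R1, the regulatory subunit of calcineurin, with means of 118 CPM in WT, 183 in Het and 169 in Hom (logFC 0.57, SE 0.15, FDR 0.011), and ATG4D, an autophagy protease gene, with 15.3, 28.1 and 29.5 CPM (logFC 0.91, SE 0.24, FDR 0.0112). NPNT, a basement membrane protein gene, fell from 56.3 to 39.8 and 41.1 CPM (logFC -0.48, SE 0.12, FDR 0.00748).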
